A study of Rattus norvegicus with 24 samples.

Results

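The response of the neonatal rat lung to dexamethasone was described from 8 of the 24 RNA-seq libraries of a study in lung and liver, chosen by the titles of their samples. The 8 were 4 lung libraries from pups given dexamethasone at 0.1 mg/kg and 4 from pups given vehicle, which was 2.5% ethanol. All pups were Sprague Dawley rats, an outbred strain, with the genotype given as WT. They were nursed by their mothers, received 5 daily subcutaneous injections from postnatal day 1, and were sampled at postnatal day 6, 24 hours after the last one. The RNA came from total lung tissue, so fewer cells of a type and less RNA per cell cannot be told apart. Set beside them where stated are 4 lung libraries from pups given desisobutyryl ciclesonide at 1.25 mg/kg and 8 liver libraries from the vehicle and dexamethasone groups, with the same strain, days and injections. The labels name no litters and do not say which pups were littermates, so p-values measure the spread between these libraries.

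Dexamethasone is a synthetic glucocorticoid. Glucocorticoids bind the glucocorticoid receptor, encoded by Nr3c1, which then enters the nucleus and raises or lowers the transcription of its target genes. Such targets in many tissues include Fkbp5, a co-chaperone of the receptor, Tsc22d3, a mediator of anti-inflammatory action, and the clock gene Per1. Steroid given before birth is used to speed lung maturation, and in the rat, whose alveoli form after birth, dexamethasone given in this window is known to disturb the division of air sacs into alveoli. The active metabolite desisobutyryl ciclesonide acts on the same receptor. The count files identify genes by Ensembl identifier and hold no names, and 0 of the 30560 identifiers matched the table of 47357 rat genes that was used. The receptor, its targets, surfactant genes and cell type markers therefore have no values here, and the lung label was not checked against markers. Results are given as counts of genes and as groups of genes, with 4 genes by identifier. No identity is attached to any of them, because none is certain from the sources used.

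The 8 libraries held 18582331 to 27881158 gene counts, and between 18390 and 19404 genes had a count in each. Aligned reads counted to no annotated feature made up 16.2% ± 0.556 (SD, n = 4) of all entries with vehicle and 19.8% ± 0.931 with dexamethasone. Counting settings are not given, so this class may also hold reads from introns or from the opposite strand of genes. The ranges, 15.6% to 16.9% and 18.8% to 21.0%, did not overlap. The difference reached the smallest p that 4 libraries against 4 allow (two-sided exact permutation test, p = 0.0286, Benjamini-Hochberg adjusted p = 0.143 over 10 library measures). The 10 most abundant genes took 7.04% ± 0.496 of gene counts with vehicle and 8.78% ± 0.953 with dexamethasone (exact permutation p = 0.0571, adjusted p = 0.190). Dexamethasone replicates 3 and 4 stood apart from replicates 1 and 2, as set out further on, and had more genes detected, 19223 and 19404 against 18473 and 18390, at greater depth. The part that these library measures have in the results was not tested.

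Dexamethasone changed the level of 8961 of the 16108 genes tested in lung, which is 55.6% of them. Of these, 4337 genes, or 26.9%, were higher than with vehicle and 4624, or 28.7%, were lower (edgeR's quasi-likelihood test, Benjamini-Hochberg adjusted p under 0.05). Without dexamethasone replicates 3 and 4, 8497 of 16529 genes were called, or 51.4%, with 4203 (25.4%) higher and 4294 (26%) lower. The number of falls exceeded that of rises with all 4 libraries under TMM scaling, which sets libraries to a common scale by a trimmed mean of ratios, but not under DESeq2's size factors, with 4546 higher and 4418 lower. Neither direction was thus the more frequent under both scalings.

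Most of these changes were small. Among the genes called higher the median log2 fold change was 0.90, and the middle of the distribution ran from 0.54 to 1.51 between the lower and upper quartiles. Among the genes called lower the median was -0.86, with quartiles of -1.49 and -0.53. A called change reached 2-fold in 3884 genes, which are 24.1% of those tested, 1927 of them higher and 1957 lower. Changes of at least 4-fold numbered 648 and 701, and changes of at least 8-fold 288 and 324. At 32-fold or more there were 67 rises and 51 falls. Most genes therefore moved little, and rises and falls were similar in number at each of these sizes when all 4 dexamethasone libraries were used.

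The balance of the larger changes was different in the fit without replicates 3 and 4. Without them rises of 4-fold or more numbered 679 and falls 1019. At 8-fold or more there were 302 rises and 530 falls, and at 32-fold or more 70 rises and 162 falls. The large falls became more numerous while the large rises stayed near their former number. The reduced fit also has only 2 dexamethasone libraries and a different set of 16529 genes. No other pair of libraries was left out, and the part of the smaller group in this shift was not tested. Both fits use the same vehicle libraries and dexamethasone replicates 1 and 2, so their shared calls are not independent of each other. Among the 16103 genes tested in both, 3752 were called higher and 3808 lower in both fits, and 2 were called in opposite directions. A further 582 higher and 816 lower calls were not called without the 2 libraries, while 404 higher and 419 lower calls among these genes appeared only without them. The plot of the change with and without these libraries shows a band of genes that fell in replicates 1 and 2 but less, or not at all, when all 4 were fitted.

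**Figure D1:**
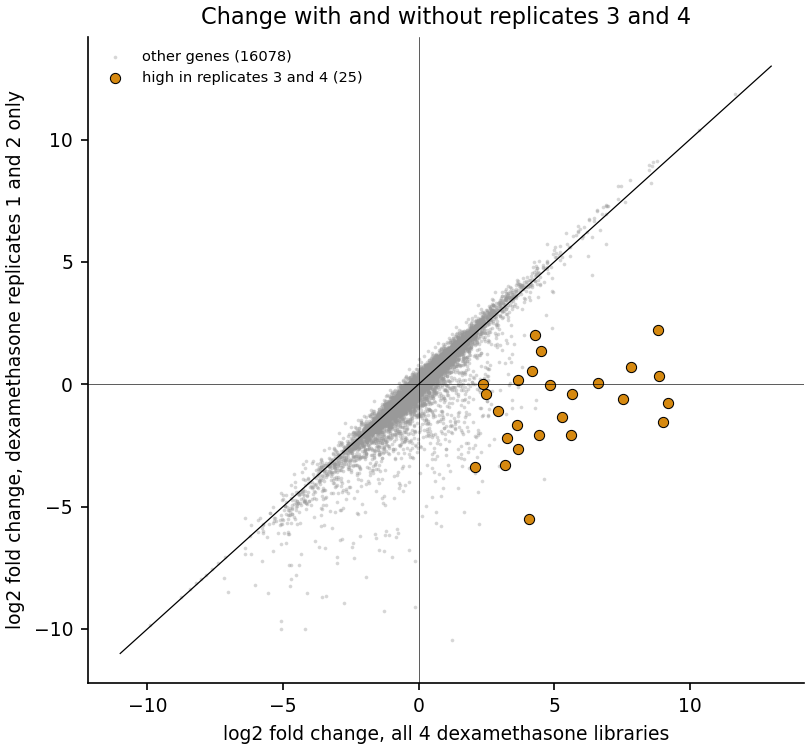
Log2 fold change in lung, dexamethasone over vehicle, with all 4 dexamethasone libraries (x axis) and with replicates 1 and 2 alone (y axis), 1 point per gene over the 16103 genes tested in both fits, with the line of equal change. The 25 genes high in replicates 3 and 4 (large points) lie at 2.08 or more on the x axis and between -5.49 and 2.20 on the y axis.

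Genes at low levels were called less often but had larger estimated changes. The 16108 genes were divided into 4 groups of 4027 by their mean log2 level over the 12 lung libraries, in CPM, which are counts scaled to a common library size. Calls made up 41.6% of the group with the lowest levels, then 57.7%, 60.9% and 62.3% as the level rose. Calls of at least 2-fold went the other way, from 36.6% through 29.5% and 16.2% to 14.3%. The median standard error of the log2 fold change fell over the same groups from 0.45 to 0.11, and the median absolute change fell from 0.90 to 0.39. Larger errors at low levels also enlarge absolute changes. Scarce genes could, besides, pass the expression filter through the group in which they were high. The part of either was not tested. In the group with the highest levels 1450 genes rose and 1060 fell, while in the group with the second lowest levels 909 rose and 1415 fell.

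**Figure D2:**
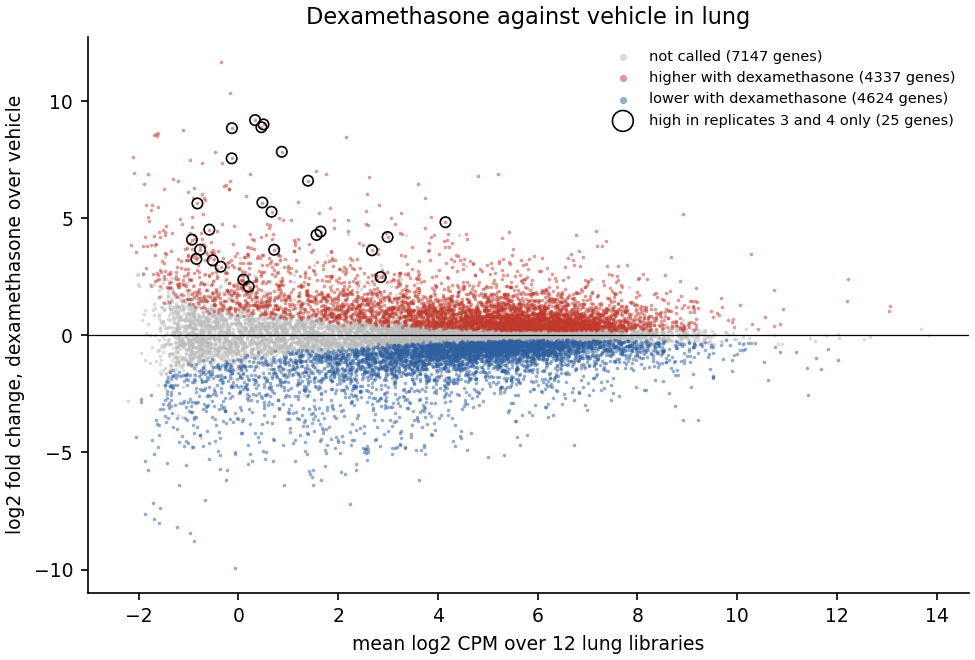
Log2 fold change of dexamethasone over vehicle (y axis) against the mean log2 CPM over 12 lung libraries (x axis), 1 point per gene tested, coloured by call. The 4337 higher and 4624 lower calls lie on both sides of 0 at every level, the largest changes lie at low levels, and the ringed 25 genes are those high in dexamethasone replicates 3 and 4.

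The most abundant transcripts of the lung also shifted. With vehicle 58 genes had a mean of at least 1000 CPM and with dexamethasone 51, of which 34 were common to both groups. Of the 58, 10 rose, 32 fell and 16 were not called. The vehicle libraries that chose these 58 also enter their change, and a choice by high vehicle level favours falls. Of the 2152 genes at 100 CPM or more with vehicle, 584 rose, 754 fell and 814 were not called, and 2456 genes reached that level with dexamethasone. Over all 16108 genes tested, 26.9% were called higher and 28.7% lower. Among the 4027 genes with the highest mean level over all lung libraries, rises were the more frequent, with 1450 higher and 1060 lower. The excess of falls among genes chosen by vehicle level therefore gives no direction for abundant genes as such.

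Among the genes that met the naming rule, a called change in the same direction with and without replicates 3 and 4, no overlap between the groups and 2 CPM or more as the mean of the group with more, 3275 rose and 3440 fell. Groups did not overlap for 8102 of the genes tested, or 50.3%, with dexamethasone above vehicle for 3823 (23.7%) and below it for 4279 (26.6%). The 5 rises with the largest gain in CPM had log2 fold changes from 1.03 to 3.47 and reached means of 4883 to 11401 CPM. In sum they went from 15049 ± 1649 CPM (SD, n = 4) to 44565 ± 5990, or from 1.57% to 4.34% of all gene counts. The 5 largest falls in CPM went from 21628 ± 745 to 8233 ± 1161 CPM, or from 2.26% to 0.808%, with log2 fold changes from -2.53 to -0.97. CPM are not divided by gene length, so a ranking of genes by CPM also reflects their length.

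The 4 genes given by identifier were the first by CPM or by fold among those that met the naming rule. No overlap between the groups and the same call with and without replicates 3 and 4 were therefore required of each. The gene with the largest gain in CPM among them was ENSRNOG00000010761. With vehicle its level was 2109, 2111, 1444.5 and 2033 CPM in replicates 1 to 4. With dexamethasone it was 11303.5, 10314, 9925 and 9407 CPM. Every dexamethasone library exceeded every vehicle library several times over, and replicates 3 and 4 were close to replicates 1 and 2. The mean rose 5.32-fold, from 1925 ± 322 to 10237.5 ± 802 CPM (log2 fold change 2.41, SE 0.21, adjusted p = 1.03e-06 by edgeR's quasi-likelihood test), and without replicates 3 and 4 the log2 fold change was 2.50 (SE 0.25, adjusted p = 1.71e-05). Its transcript was nearly confined to lung among the 2 tissues of the study, at a mean of 0.0133 CPM in vehicle liver and 0.0184 CPM in dexamethasone liver, too low to be tested there.

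The gene with the largest loss in CPM was ENSRNOG00000045683. With vehicle its level was 5371, 5180, 4212 and 4691 CPM in replicates 1 to 4. With dexamethasone it was 1147, 338, 1294 and 580 CPM, lowest in replicate 2. The groups were far apart, and the dexamethasone libraries differed among themselves by more, relative to their mean, than the vehicle libraries did. The mean fell from 4864 ± 520 to 839.8 ± 455 CPM, 5.79-fold lower (log2 fold change -2.53, SE 0.34, adjusted p = 5.32e-05 by edgeR's quasi-likelihood test), and the log2 fold change without replicates 3 and 4 was -2.70 (SE 0.41, adjusted p = 0.000387). In liver the same gene was scarce, at 19.5 ± 5.16 CPM with vehicle, and fell to 3.20 ± 2.39 CPM (log2 fold change -2.63, SE 0.48, adjusted p = 0.000792). The lung change less the liver change was 0.09 on the log2 scale (SE 0.58, adjusted p = 0.921), so a difference between the tissues was not shown for it, and its sign changed in 6 alternative fits.

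The largest fold changes among the genes that met the naming rule belonged to genes nearly absent in 1 of the 2 groups. In the other group the means ran from 2.16 to 88.1 CPM for the 10 largest rises. For the 10 largest falls they ran from 2.06 to 63.8 CPM. The 10 largest rises had log2 fold changes from 7.48 to 11.67, and 7 of them had no count in any vehicle library. Together they summed to 0.293 ± 0.114 CPM with vehicle and 140 ± 38.7 CPM with dexamethasone, where the 4 libraries gave 175.5, 171, 101 and 113 CPM. The sum was higher in replicates 1 and 2 than in 3 and 4. The 10 largest falls had log2 fold changes from -9.92 to -6.16 and went from 165 ± 18.2 CPM in sum to 1.70 CPM, with 1.41 to 2.39 CPM in the single dexamethasone libraries and with 3 of them at no count in any dexamethasone library. All 20 genes were also called, in the same direction, without replicates 3 and 4, as the rule that chose them required.

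ENSRNOG00000023151, the largest rise by fold, had no count in the 4 vehicle libraries. Its level with dexamethasone was 22.9, 23.1, 16.5 and 14.4 CPM in replicates 1 to 4. All 4 treated libraries held it, and replicates 1 and 2 held more than 3 and 4. Against a floor of 3 counts over the vehicle group it was at least 541-fold higher, at a mean of 19.2 ± 4.46 CPM (adjusted p = 0.000103 by edgeR's quasi-likelihood test, and 0.000927 without replicates 3 and 4). The bound covers counting error only. In liver it had no count with vehicle and a mean of 0.120 ± 0.108 CPM with dexamethasone, and it was not tested there.

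ENSRNOG00000009662, the largest fall by fold, was at 8.07, 6.27, 3.11 and 5.38 CPM in vehicle replicates 1 to 4. None of the 4 dexamethasone libraries had a count for it. Against the same floor, over the dexamethasone group, it was at least 174-fold lower (adjusted p = 0.00265 by edgeR's quasi-likelihood test, and 0.0172 without replicates 3 and 4). It had no count in any of the 8 liver libraries. In this gene the groups are parted by presence and absence of counts at a modest level, where 501 counts over the vehicle libraries stood against 0.

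**Figure D3:**
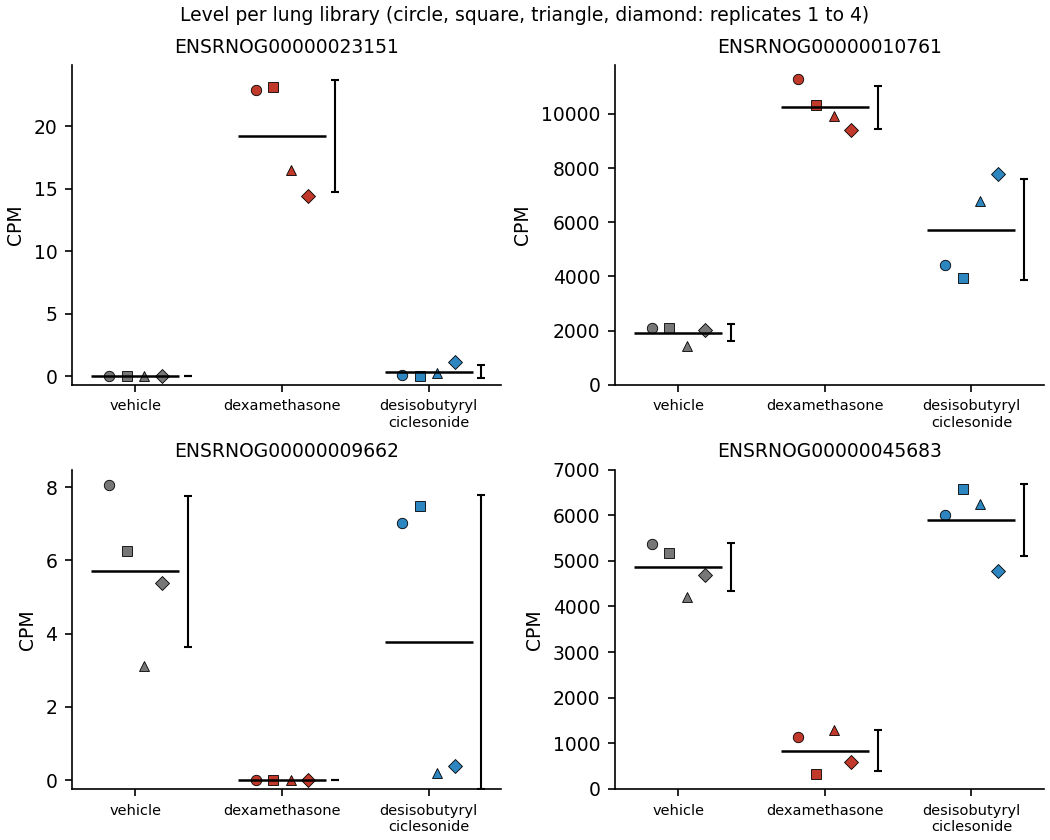
Level in CPM (y axes, linear and different for each gene) in each lung library by treatment for the 4 genes given by identifier, with the group mean (horizontal line) and SD (bar, n = 4). Dexamethasone and vehicle libraries do not overlap for any of the 4, as the rule that chose them required. The desisobutyryl ciclesonide libraries lie at 3936 to 7795 CPM for ENSRNOG00000010761 and at 4768 to 6572 CPM for ENSRNOG00000045683.

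Complete gain or loss of a transcript was seen for few well measured genes. With no count in any vehicle library and a count in all 4 dexamethasone libraries there were 64 genes, and 63 showed the converse. Most were close to the limit of detection, with a median level of 0.216 CPM for the first group and 0.195 CPM for the second in the libraries that held them. Only 9 of each passed the expression filter, and they could pass it only through the libraries in which they were present. A mean of 2 CPM or more was reached by 8 genes of the first group and by 3 of the second. Genes that had no count with vehicle and a count in both of replicates 3 and 4 numbered 240, against 131 for replicates 1 and 2. Replicates 3 and 4 were also the deeper libraries, with 23471828 and 27881158 gene counts against 22132424 and 18880978, and the part of depth in this difference was not tested.

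Replicates 3 and 4 also shared a group of transcripts that stood low in the other lung libraries. A gene counted as such if it exceeded each of the other 10 lung libraries 4-fold or more in both, and 25 genes did. The rule chose them by these values, which are therefore a description. Summed over the 25, vehicle replicates 1 to 4 held 34.7, 34.9, 39.7 and 32.8 CPM. Dexamethasone replicates 1 to 4 held 30.7, 32.3, 1575 and 4758 CPM. Replicates 1 and 2 lay slightly below the lowest vehicle library, with the mean of these 2 libraries below the vehicle mean for 17 genes and above it for 8, and replicate 4 was higher than replicate 3 for all 25 genes, by 1.65 to 4.98 times with a median of 2.83. The weakest member was 4.04-fold above its next highest lung library, and the strongest gene left out was 3.75-fold above. The 4 liver libraries with vehicle summed to 9.30 ± 1.06 CPM and the 4 with dexamethasone to 9.87 ± 2.27 CPM. The dexamethasone liver libraries that carry the numbers 3 and 4 were low too, at 9.50 and 10.8 CPM.

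**Figure D4:**
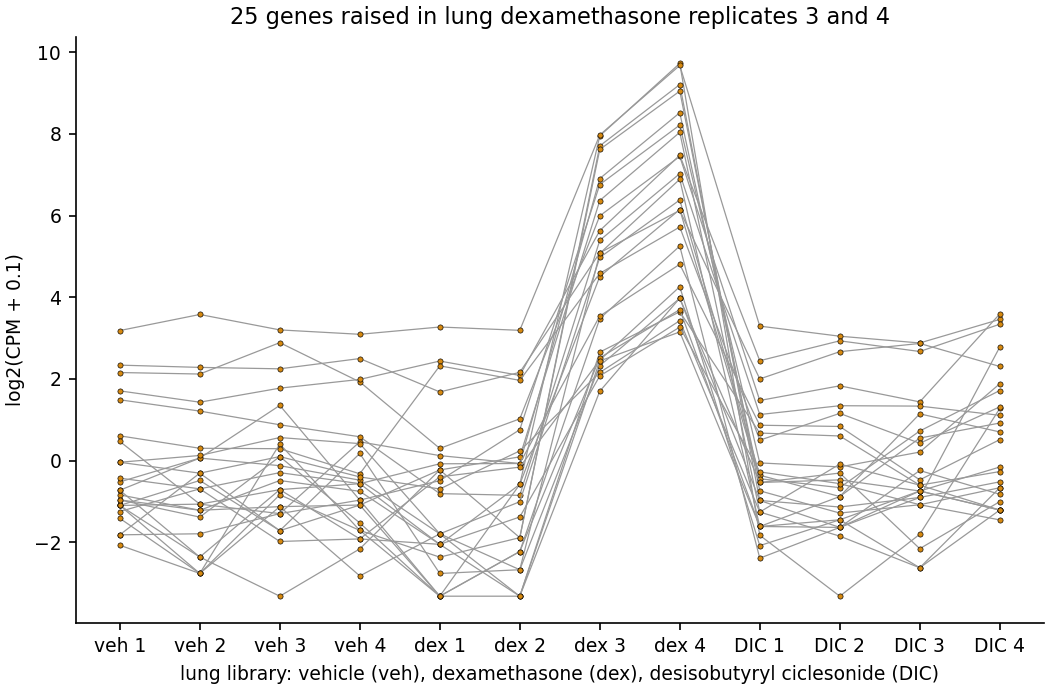
Level of the 25 genes as log2(CPM + 0.1) (y axis) in each of the 12 lung libraries (x axis), with 1 line per gene joining its values. All 25 stand high in dexamethasone replicates 3 and 4, with single values from 3.14 to 847 CPM, and at no more than 11.9 CPM in any other lung library.

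These 25 genes entered the main comparison as rises. With all 4 libraries 23 of them were called higher, at log2 fold changes between 2.08 and 9.19 over the 25, although the groups overlapped for 20. The count fell to 1 with limma-voom, to 12 with the replicate number as a block, to 12 of the 20 tested in a fit of the 8 vehicle and dexamethasone libraries, and to 15 on leaving out dexamethasone replicate 4 or vehicle replicate 1. Without replicates 3 and 4 only 5 were called, 1 higher and 4 lower, and the median log2 fold change went from 4.43 to -0.62. Their calls rest on 2 libraries. They make up 23 of 4337 rises. Because the identifiers have no names, whether the 25 are markers of a cell type or structure was not tested.

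Over all genes tested, each dexamethasone library was farther from the vehicle libraries than from the other dexamethasone libraries. The median absolute difference in log2 CPM between 2 libraries was 0.152 to 0.247 within vehicle, 0.202 to 0.371 within dexamethasone and 0.494 to 0.721 between a vehicle and a dexamethasone library. No pair across the groups was as close as any pair within them. Dexamethasone replicates 3 and 4 were the closest treated pair, at 0.202, while replicates 1 and 2 differed by 0.332, which lay within the range of 0.260 to 0.371 between the 2 pairs. The median SD of log2 CPM was 0.174 over the vehicle libraries and 0.276 over the dexamethasone libraries, and it was larger with dexamethasone in 71.7% of genes. No test was made of this difference in spread.

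The lung calls were also counted by the level of each gene in the liver of vehicle pups. Of the 526 genes tested in lung that had no count in vehicle liver, 30.6% rose and 15.2% fell, with a median log2 fold change of 0.65. Among the 3396 genes with a count but under 1 CPM there, 26.3% rose and 20.1% fell. Among the 4810 genes at 1 to 10 CPM in vehicle liver, 24.1% rose and 32.8% fell. For genes at 10 to 100 CPM the shares were 29% and 31.8%, and for those at 100 CPM or more 27.5% and 25.2%. The excess of rises in the class with no liver count was much smaller without replicates 3 and 4, with 23.5% higher and 18.3% lower and a median of 0.01, and in the class under 1 CPM the shares were then 21.1% and 20.7%. Of the 3892 genes with a lung count and no count in vehicle liver, 526 passed the expression filter, and a gene could pass through the libraries in which it rose. Without the filter 300 genes of this class with no liver count rose and 142 fell. The classes were drawn after earlier results were known, and no test was made of them.

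**Figure D5:**
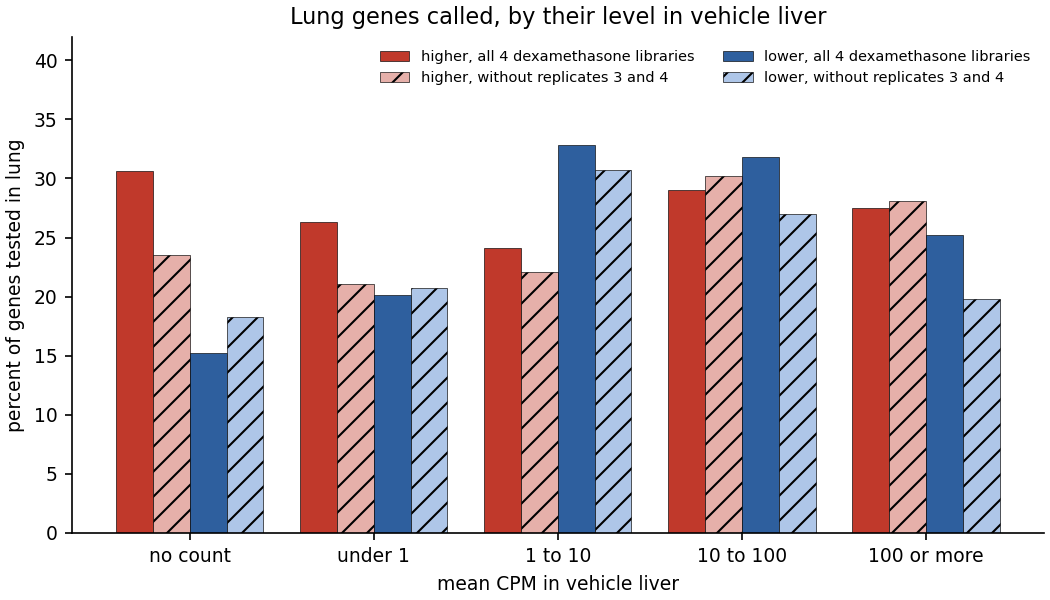
Percent of the genes tested in lung that were called higher (red) or lower (blue) with dexamethasone, by mean CPM in vehicle liver (x axis), with all 4 dexamethasone libraries (solid) and without replicates 3 and 4 (hatched). In the class with no count in vehicle liver, 30.6% rose and 15.2% fell with all 4 libraries, and 23.5% and 18.3% without replicates 3 and 4.

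The same dose changed 6522 of 13734 genes tested in liver, or 47.5%, with liver vehicle libraries of its own. Among the 13245 genes tested in both tissues, 1588 were higher in both, which is 44.2% of the 3590 lung rises and 53.5% of the liver rises. A further 1909 were lower in both, 46.8% of the 4075 lung falls and 58.6% of the liver falls. Of the lung rises 9.39% fell in liver, and of the lung falls 7.34% rose there. Among the 5580 genes not called in lung, 19.4% rose and 18.1% fell in liver. These shares are a description of the calls and were not tested. Tested directly, the lung change differed from the liver change for 4601 of the 13245 genes, or 34.7% (edgeR's quasi-likelihood test on 24 libraries). This test had no term for the pup. With the replicate number within a treatment as a block, 5046 genes were called, 4445 of them also called in the same direction without the block. The replicate numbers were taken to mark pups that gave both tissues, though the labels do not say so, and independence of the tissues cannot be assumed.

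The genes with the largest lung changes were also counted in liver. Over all genes tested in both tissues, 44.2% of lung rises rose in liver and 46.8% of lung falls fell there. The direct test of the tissue difference, without a term for the pup, called 34.7% of genes. Of the 10 largest lung falls 6 were tested in liver and all 6 fell there, and 1 of the 6 differed between the tissues in the direct test. Of the 10 largest lung rises 6 were tested in liver, 3 rose and none fell, and 4 of the 6 differed. In sum these 10 rises held 133 ± 39.7 CPM in vehicle liver and 3562 ± 757 CPM with dexamethasone, almost all of the latter from 1 gene that went from a mean of 16.7 to 3470 CPM in liver and from 0.237 to 88.1 CPM in lung. Of the 5 largest rises in CPM only 2 were expressed highly enough to be tested in liver, and 1 rose. All 5 of the largest falls in CPM were tested there, and 3 fell. These counts rest on few genes and were not tested against the shares over all genes.

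The lung libraries of desisobutyryl ciclesonide give the level of the same genes under another glucocorticoid, at another dose, so the drugs are set side by side without a matched comparison. The genes were also chosen by their dexamethasone values, which enter the direct test. The share of aligned reads counted to no annotated feature was 13.1% to 13.6% in these 4 libraries. Their deposited names also number them in a series of their own. Drug, dose and library series cannot be told apart here. The 10 largest rises summed to 9.66 ± 10.4 CPM with desisobutyryl ciclesonide, against 140 with dexamethasone and 0.293 with vehicle. The mean covers unlike libraries, at 1.63, 3.10, 9.49 and 24.4 CPM in desisobutyryl ciclesonide replicates 1 to 4. The 10 largest falls summed to 68.8 ± 26.4 CPM, against 1.70 and 165, with 96.5, 82.8, 59.3 and 36.5 CPM in the same 4 replicates. In these groups of extreme genes the summed levels with desisobutyryl ciclesonide lay between those of the other treatments. Gene by gene, the mean did so for all 10 rises and for 9 of the 10 falls. The choice of genes favours this position, because vehicle was near 0 for the rises and dexamethasone near 0 for the falls. No level can lie below 0, so no conclusion about the drugs is drawn from it.

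The abundant genes were less uniform. The 5 largest rises in CPM summed to 35594 ± 7701 CPM with desisobutyryl ciclesonide, against 44565 with dexamethasone and 15049 with vehicle. Replicates 1 to 4 held 34407, 25158, 41588 and 41221 CPM. The 5 largest falls summed to 25213 ± 1538 CPM, above the 21628 of vehicle. Gene by gene, the mean lay between vehicle and dexamethasone for 3 of the 5 rises and 1 of the 5 falls. The direct test called 2 of the 5 rises lower than with dexamethasone, and all 5 falls higher. ENSRNOG00000010761 stood at 5727 ± 1854 CPM, lower than with dexamethasone by a log2 difference of -0.84 (SE 0.20, adjusted p = 0.00409 by edgeR's quasi-likelihood test). Its level was 4408, 3936, 6770 and 7795 CPM in desisobutyryl ciclesonide replicates 1 to 4. ENSRNOG00000045683, which had lost most of its level with dexamethasone, stood at 5897 ± 787 CPM, in the region of its vehicle level of 4864 (log2 difference from dexamethasone 2.81, SE 0.35, adjusted p = 4.96e-05 by edgeR's quasi-likelihood test). ENSRNOG00000023151 stood at 0.0453, 0, 0.248 and 1.13 CPM in the 4 libraries. ENSRNOG00000009662 was at 7.02 and 7.49 CPM in replicates 1 and 2 and at 0.186 and 0.398 CPM in replicates 3 and 4, so 2 libraries were at the vehicle level and 2 were near the absence seen with dexamethasone. Over all genes the direct test called 7966 of 16108, or 49.5%, as different between these drugs.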

How the data were processed

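The authors deposited raw counts, 1 file per library and 1 whole number per Ensembl identifier, without scaling. Trimming, alignment and counting tools (cutadapt, HISAT2, HTSeq) and the build mRatBN7.2 are listed in the submitters' processing notes. Versions, settings and use of strand in counting are not given in the sources used here, so genes that overlap, lie antisense or have near copies carry uncertain counts. Per the labels' protocols, libraries were directional (dUTP) and made from poly-A RNA after a Trizol extraction. The 5 closing summary entries of each file, 26.4% to 31.8% of entries in the 8 libraries, entered neither library sizes nor tests.

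The main tests used edgeR 4.0.16 under R 4.3.3 (default expression filter, TMM scaling, robust quasi-likelihood fit, Benjamini-Hochberg threshold of 0.05) on the 12 lung libraries with 1 mean per treatment, which share 1 estimate of spread. The liver change was fitted on the 12 liver libraries and the tissue difference on all 24. The standard error was taken as the absolute log2 fold change over the square root of F. CPM are on TMM-scaled library sizes. The code was tested on simulated data in which few genes changed, as many raised as lowered. Data in which most genes change, as was called here, were not simulated. The alternatives used DESeq2 1.42.0 and limma 3.58.1.

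Members, gene groups and 38 gene lists were chosen with earlier results of these data known. The lists need gene names and could not be run. Without names the rule allowed 2 rises and 2 falls by identifier, and taking the first by fold and the first by CPM was decided after the values were seen. So were the classes by liver level, the library measures other than the read categories, the distances between libraries and the groups by abundance or by absence of counts. Libraries of 1 lung group always differed by more than sampling noise (lowest chi-square over its degrees of freedom 11.6), so each was counted.

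The replicate numbers were checked for pairing. Same-numbered lung and liver libraries of a treatment had positively correlated deviations in 12 of 12 pairs (r across genes 0.112 to 0.324), so the numbers were taken to mark pups across tissues, though the labels do not say so. Pairs with different numbers are not given across tissues, so a shared pup cannot be told apart from a shared litter or batch. Between lung vehicle and dexamethasone the same numbers gave r of 0.33, 0.12, 0.34 and -0.26, and were not taken as pairs. Lung vehicle replicate 3 gave r of -0.50, -0.16, 0.34 and 0.45 with dexamethasone replicates 1 to 4. The part of this likeness to replicates 3 and 4 in the results was not tested.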

Additional observations from a re-analysis of the deposited data

Results flagged for a closer look

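Among 49 groups of 4 libraries examined, 2 held a library far from the others, where chance gives about 1 in 20. ENSRNOG00000010761 was lowest in lung vehicle replicate 3, at 1444.5 CPM against 2033 to 2111 in the other 3 vehicle libraries. The 25 genes high in lung dexamethasone replicates 3 and 4 were highest among the desisobutyryl ciclesonide libraries in replicate 4, at 68.2 CPM in sum against 35.3 to 40.0 in the other 3. The response to dexamethasone differed between lung and liver for 4601 of 13245 genes in the direct test of the difference by edgeR.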

How the results depend on the processing

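The count of genes changed in lung, 8961, was 8964 with DESeq2's size factors, 8962 with upper quartile scaling (3904 higher and 5058 lower), 8987 without the expression filter, 9315 with DESeq2, 9042 with limma-voom and 8328 with the 8 vehicle and dexamethasone libraries alone. Leaving out 1 library gave 8122 to 8907 genes for this comparison, 6945 to 7911 for the difference between the drugs, 4176 to 4592 for the difference between the tissues, and 2.71 to 3.78 percentage points for the difference in the share of entries not assigned to a gene, 3.26 with all libraries. With the replicate number as a block the 3 counts were 8932, 7904 and 5046. For the tissue difference this block was the number within a treatment, taken to mark the pup. Every count stayed within 1.5 times its main value. The block changed no call of the 4 genes given by identifier, and of the 25 genes high in dexamethasone replicates 3 and 4 it left 12 called. Of those 25, limma-voom called 1, the 8 libraries alone 12, and 15 were called without dexamethasone replicate 4 or without vehicle replicate 1. The cause was not tested. ENSRNOG00000009662 and ENSRNOG00000023151 kept their calls in 16 of 16 alternatives, with adjusted p up to 0.0172 and 0.00225, as did the other 2 genes. The call without dexamethasone replicates 3 and 4 was required by the rule that chose these genes. The tissue difference of ENSRNOG00000045683 changed sign, with no call, to -0.054 without lung dexamethasone replicates 3 and 4, and on leaving out 1 library it ran from -0.17 to 0.68, with -0.02, -0.15, -0.07 and -0.10 among the negative values. The files give counts without molecular identifiers, so depth limits what can be said of the genes at the lowest levels, whose log2 fold changes had a median standard error of 0.45, and the bounds against absent counts cover counting error only. The alternatives for gene lists were not run, because no list could be matched to identifiers.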
